A study of Mus musculus with 13 samples.

Results

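The mRNAs of the cytoplasmic ribosomal proteins were examined in RNA-seq of mouse embryonic stem (ES) cells. Members were the genes whose symbol is Rpl or Rps followed by a number, an optional letter and an optional l, together with Rplp0, Rplp1, Rplp2 and Rpsa, without named pseudogenes and without the Rps6k kinases. The rule used names and no measured value. It gave 78 of the 26797 genes in the tables of the replicate libraries, 47 of the large and 31 of the small subunit, and all 78 identifiers were also among the 49671 genes of the count table.

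The replicate libraries came from untreated WT ES cells of the AinV15 line (3 libraries) and from an ES cell line that carries the C null allele on both copies of Dnmt1 (Dnmt1-/-, 3 libraries), the gene of the maintenance DNA methyltransferase. Dnmt1-/- is a line of its own and not AinV15, so that the genotype and the other differences between the lines cannot be told apart. In a separate count table, 1 library was of AinV15 cells that express dCas9-OGA, a bacterial O-GlcNAc hydrolase fused to catalytically dead Cas9, and 1 was of AinV15 cells that express dCas9-OGA-D242A, whose hydrolase is inactivated. Both fusions were made from a doxycycline-inducible cassette, and both cell populations carried 4 sgRNAs against IAP retrotransposons. The same table holds 1 further WT and 1 further Dnmt1-/- library, which the labels tie to no replicate. Nothing in the labels says whether replicates came from separate cultures, so p-values measure the spread between these libraries, which may be technical.

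Each ribosome holds 1 copy of most of these proteins, and cells are known to keep their synthesis in step. The mRNAs are known to begin with a C followed by a run of pyrimidines, the terminal oligopyrimidine tract, through which growth signals control their translation. The family is also known for processed pseudogenes, intronless copies of the mRNA scattered over the genome, and for a few expressed retrogenes and paralogs that replace an X-linked member in particular cells. Messenger RNA of the family is abundant in ES cells.

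The tract can be read at the annotated starts. Of the members, 57 had an entry in the RefSeq promoter table (GRCm38.p6, the mm10 assembly), with 67 entries in all. In 11 of these entries (16.4%) the start base was C and at least 5 pyrimidines followed in an unbroken run counted from it, against 2.51% of all 32851 entries. In 25 entries (37.3%) the 300 bases held CCGGAAG on either strand, against 8.86% of all entries, and in 38 (56.7%) they held GGGCGG on either strand, against 35.7%. TATAAA stood in the 250 bases before the start in 1 member entry (1.49%), against 7.59% of all. The median number of CG pairs was 21 for members and 7 for all entries. Of the 30 bases from 14 before to 15 after the start, the following are shown with the pyrimidine run from the start in capitals, first for members that rose in Dnmt1-/- or were lower in dCas9-OGA:
Rpl15 (chr14:18270971-18271000, minus strand): tgggagaaagccttCTTCCTTTCCTCTggc
Rps10 (chr17:27635229-27635258, minus strand): cgccgcgcacgcccCTTCCTTTCCagcctc
Rps6 (chr4:86857352-86857381, minus strand): agcggaagtcgggcCTCTTTTTCgtgacgc
Rpl28 (chr7:4792951-4792980, plus strand): cgcctctcgtgtctCTCTTTCCgtctccgg
Rpl38 (chr11:114668566-114668595, plus strand): gcggaagcctcgttCTTTCCCCgttctctt
Rpl27 (chr11:101442231-101442260, plus strand): cgctctgttcctgtCTgctgctcgtgctgc
Rps21, which fell in Dnmt1-/- and also has a run of 5 that begins with C, and the retrogene Rpl10l follow:
Rps21 (chr2:180257365-180257394, plus strand): accgaggacccgccCTCCTgcccaatagtg
Rpl10l (chr12:66284386-66284415, minus strand): ttggcctccattttgcggctggcggtgggc
Rpl15 had the longest run that begins with C, 13 bases. Members not called in Dnmt1-/- had such runs too, among them Rps18 (9 bases), Rps15a (8) and Rps27 (7), not shown. A relation of the run to the direction of change was not tested. The entry of Rpl27 begins with C and has a run of 2. That of Rpl10l begins with G and has no run. An annotated start can lie some bases from the start used in these cells, so the absence of a run says only that these letters are not at the annotated base.

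Between 26846275 and 37112247 reads per replicate library were assigned to genes, and between 18693531 and 25097983 in the single libraries. Members took between 4.98% and 5.76% of the reads in the replicate libraries and between 2.48% and 2.65% in the single ones. Dnmt1 itself had a signal of 308, 352 and 347 in WT and 73.6, 75.4 and 77.6 in Dnmt1-/-, log2 fold change −2.14 ± 0.05 (SE, n = 3 and 3, adjusted p = 1.1e-20), in the direction of the label. In the single libraries Dnmt1 was at 460 cpm (counts scaled to library size) in WT, 61.9 in Dnmt1-/-, 376 in dCas9-OGA-D242A and 549 in dCas9-OGA. The ES cell markers Pou5f1, Nanog, Zfp42 and Esrrb were expressed in every replicate library, with a summed signal between 2406 and 2666. Fibroblast markers were not at 0: the 5 listed genes summed to between 998 and 1450 in WT and between 242.2 and 268.7 in Dnmt1-/-, and all 5 fell. In bulk RNA fewer cells of a type and less RNA per cell cannot be told apart, and the part of these differences in any result below was not tested. Replicate 3 was the lowest of its group for 44 of the 78 members in WT and for 64 in Dnmt1-/-.

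Whether loss of Dnmt1 went with a change of these mRNAs was asked first, with the 3 and 3 replicate libraries. Values are the deposited signal, reads divided by a scaled library size, and were tested as log2(signal + 0.5) with limma, with an adjusted p under 0.05 over 17297 genes as the threshold. All 78 members passed the filter on low values. Of them, 17 rose and 17 fell in Dnmt1-/-, and 44 did not pass the threshold. Of all genes tested, 71.2% passed, 35.8% upward and 35.4% downward, against 43.6% of members. The median member had a log2 fold change of −0.0010 and the median gene one of 0.0069. The median size of change without its sign was 0.13 for members and 0.36 for all genes, and 6 members (7.69%) were past 1.5-fold, all downward, against 31.1% of all genes. Among the 2321 other genes with a mean signal of at least 100, 75.2% passed, 1214 upward and 532 downward, with a median log2 fold change of 0.14 and a median size of 0.26.

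**Figure D1:**
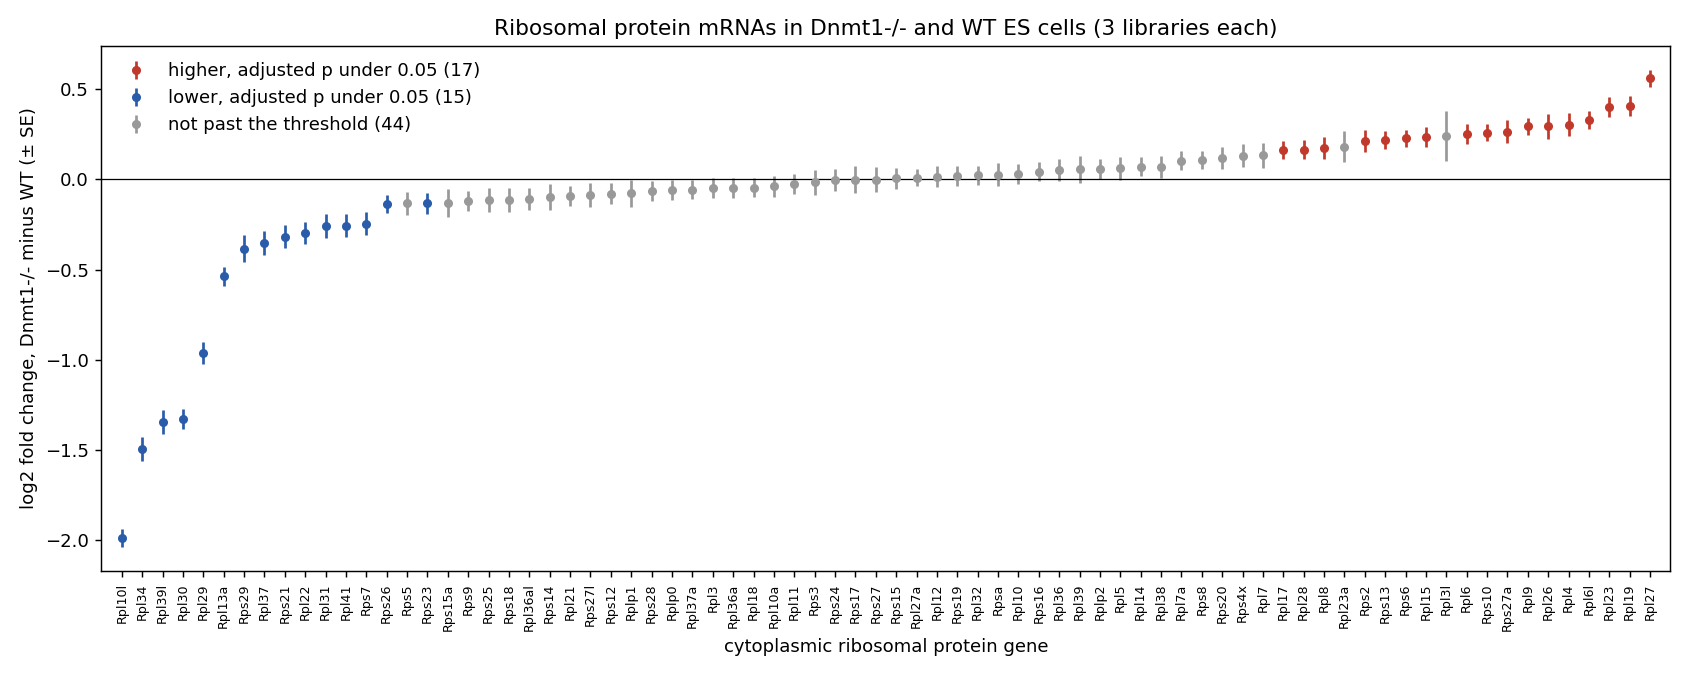
Log2 fold change (Dnmt1-/- minus WT, y axis) of 76 of the 78 ribosomal protein genes in rank order (x axis), as points with the standard error of limma. Most points lie within 0.4 of 0, with 17 in red that rose to at most 0.56, 15 in blue that fell, and a tail of 5 genes from −0.96 (Rpl29) to −1.99 (Rpl10l).

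The split of the calls depended on the scaling. With library totals that leave out the members in place of the deposited scaling, 13 rose and 35 fell, while 29.0% of all genes rose and 41.4% fell. The median of all genes moved to −0.083 and that of members to −0.10. Totals that keep the members were not run, so the part of leaving them out was not separated from that of dropping the deposited scaling. Without Dnmt1-/- replicate 3, 23 members rose and 16 fell, beside 33.5% and 33.8% of all genes. Without Dnmt1-/- replicate 1, 15 members rose and 25 fell, beside 33.5% and 34.2% of all genes. By subunit, 12 of 47 large-subunit members rose and 11 fell (median 0.02, 48.9% called), and 5 of 31 small-subunit members rose and 6 fell (median −0.02, 35.5% called). The difference between the subunits was not tested.

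A pair of autosomal paralogs of X-linked members was among the largest falls. Rpl10l (chr12:66283379-66284401, minus strand), an intronless retrogene of Rpl10 known for replacing it in male meiosis, had a signal of 229.9, 239 and 246 in WT and 59.6, 58.8 and 60.4 in Dnmt1-/-. All Dnmt1-/- libraries lay far below all WT libraries, with a log2 fold change of −1.99 ± 0.05 (SE, n = 3 and 3, adjusted p = 6.9e-21). Rpl39l (chr16:10170226-10174911, plus strand), a paralog of Rpl39 known from testis and ES cells, had 125, 121 and 131 in WT and 55.6, 49.0 and 43.5 in Dnmt1-/-, a log2 fold change of −1.35 ± 0.07 (SE, n = 3 and 3, adjusted p = 4.7e-15). No copy of at least 98% identity over 50 bases was found elsewhere in the genome for the coding sequence of either gene. Their X-linked partners did not pass the threshold. Rpl10 had 209, 188 and 184 in WT and 209.9, 195 and 188 in Dnmt1-/-, log2 fold change 0.03 (adjusted p = 0.65), and Rpl39 had 311, 277 and 301 in WT and 346, 327 and 257 in Dnmt1-/-, log2 fold change 0.06 (adjusted p = 0.51). For both partners the groups overlapped.

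The other paralogs were followed in the same way. Rpl3l, the muscle form of Rpl3, had between 27 and 49 reads per library, a signal of 1.21, 1.22 and 0.97 in WT and 1.39, 1.61 and 1.29 in Dnmt1-/- and a log2 fold change of 0.24 (adjusted p = 0.12). Rpl3 was at −0.05 (adjusted p = 0.43). Rpl36a and its paralog Rpl36al were at −0.05 (adjusted p = 0.46) and −0.11 (adjusted p = 0.11). Rps27 and Rps27l were at −0.00048 (adjusted p = 1) and −0.09 (adjusted p = 0.24), and X-linked Rps4x, with 1983, 1832 and 1757 in WT and 2119, 2032 and 1948 in Dnmt1-/-, was at 0.13 (adjusted p = 0.073). None of these members passed the threshold, and the groups overlapped for all but Rpl3l.

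The other large falls were in Rpl34, Rpl30 and Rpl29. Rpl34 (chr3:130726831-130730398, minus strand) had 119, 118 and 114 in WT and 44.0, 44.6 and 35.4 in Dnmt1-/-, a log2 fold change of −1.498 ± 0.07 (SE, n = 3 and 3, adjusted p = 8.6e-16). Rpl30 (chr15:34440505-34443640, minus strand) had 149.6, 143 and 132 in WT and 58.6, 55.9 and 53.5 in Dnmt1-/-, a log2 fold change of −1.33 ± 0.05 (SE, n = 3 and 3, adjusted p = 1.9e-16). Both encode large-subunit proteins, and WT lay above Dnmt1-/- in all libraries. Rpl29 (chr9:106429454-106431568, plus strand), another large-subunit gene, had 79.8, 83.4 and 71.2 in WT and 40.0, 42.1 and 37.4 in Dnmt1-/-, a log2 fold change of −0.96 ± 0.06 (SE, n = 3 and 3, adjusted p = 9.3e-13). Exons of Rpl30 and Rpl13a overlap those of other annotated genes (D730044K07Rik and Gm45713), and reads there cannot be assigned with certainty. The same limit holds for further members, among them Rpl5, Rpl15, Rpl19, Rpl23a, Rpl28, Rpl31, Rpl36al, Rps10 and Rps27a.

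For Rpl34 and Rpl30 most of the signal of the family lay in rows of named pseudogenes. Rpl34-ps1 alone had 622, 635 and 635 in WT and 581, 577 and 460.3 in Dnmt1-/-, well above Rpl34 itself in every library. Its log2 fold change was −0.23 (adjusted p = 0.0034). When the pseudogene rows were added to each member, Rpl34 fell by 0.37 and Rpl30 fell by 0.35 on the log2 scale, in place of 1.498 and 1.33. The rows Rpl30-ps9, Rpl30-ps10 and Rpl30-ps8 were at −0.21, −0.19 and −0.19. Rpl29 changed little by the addition, to −0.92, but its named pseudogene rows had a summed mean signal of only 1.89 in WT. Its whole coding sequence has copies of at least 98% identity elsewhere (7 matches), so the addition says little about reads of such copies. Rpl10l and Rpl39l have no named pseudogene row.

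Smaller falls made up the rest, from Rpl13a (−0.54 (adjusted p = 4.1e-09)), Rps29 (−0.38 (adjusted p = 6.3e-05)) and Rpl37 (−0.35 (adjusted p = 3.6e-05)) to Rps23 (−0.13 (adjusted p = 0.045)). Rpl22 had 665, 635 and 677 in WT and 583, 549 and 479 in Dnmt1-/-, log2 fold change −0.30 (adjusted p = 0.00013). Its paralog Rpl22l1, which the naming rule leaves out and which Rpl22 protein is known to repress, had 58.2, 50.02 and 50.3 in WT and 76.9, 64.7 and 50.3 in Dnmt1-/-, log2 fold change 0.26 (adjusted p = 0.017), with overlapping groups. Rps26 and Rps23 among the falls and Rpl17 and Rpl8 among the rises did not keep an adjusted p under 0.05 when a library was left out, and the other 15 falls and 15 rises did in all 6 fits that left out 1 library.

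The rises were small. Rpl27 (chr11:101442298-101445529, plus strand), a large-subunit gene, had 125, 125 and 122 in WT and 186, 183 and 182 in Dnmt1-/-, a log2 fold change of 0.56 ± 0.05 (SE, n = 3 and 3, adjusted p = 1.1e-10) or 1.48-fold. Rpl19 (chr11:98026710-98030492, plus strand) had 268, 253 and 241 in WT and 352, 343 and 316 in Dnmt1-/-, a log2 fold change of 0.41 ± 0.05 (SE, n = 3 and 3, adjusted p = 3e-07). Rpl23 (chr11:97777527-97782437, minus strand) had 662, 629 and 631 in WT and 896, 864 and 782 in Dnmt1-/-, a log2 fold change of 0.40 ± 0.06 (SE, n = 3 and 3, adjusted p = 9.9e-07). All Dnmt1-/- libraries lay above all WT libraries for these members. Rpl26 (chr11:68901583-68906989, plus strand) had 1210.0, 1251 and 1230.0 in WT and 1629.7, 1614 and 1306 in Dnmt1-/-, and Dnmt1-/- replicate 3 was close to WT, with a log2 fold change of 0.29 ± 0.07 (SE, n = 3 and 3, adjusted p = 0.00067). Rpl4 (chr9:64173375-64178666, plus strand), the most abundant of the 6 and without a near-identical copy, had 2441, 2276 and 2366 in WT and 3014, 2821 and 2907 in Dnmt1-/-, a log2 fold change of 0.30 ± 0.07 (SE, n = 3 and 3, adjusted p = 0.00023). Rpl6l (chr10:111125851-111126721, plus strand) is annotated as a processed pseudogene and shares its sequence with Rpl6. It had 316, 311 and 331 in WT and 403, 396 and 405 in Dnmt1-/-, log2 fold change 0.33 (adjusted p = 1.6e-06), beside 0.25 (adjusted p = 0.00021) for Rpl6, and reads of the pair may be split between them. The other rises ran from Rpl17 (0.16) to Rpl9 (0.29) and included Rps6, the substrate of the S6 kinases (0.23 (adjusted p = 0.00022)), and Rps27a, whose protein is made as a fusion with ubiquitin (0.26 (adjusted p = 0.00076)).

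**Figure D2:**
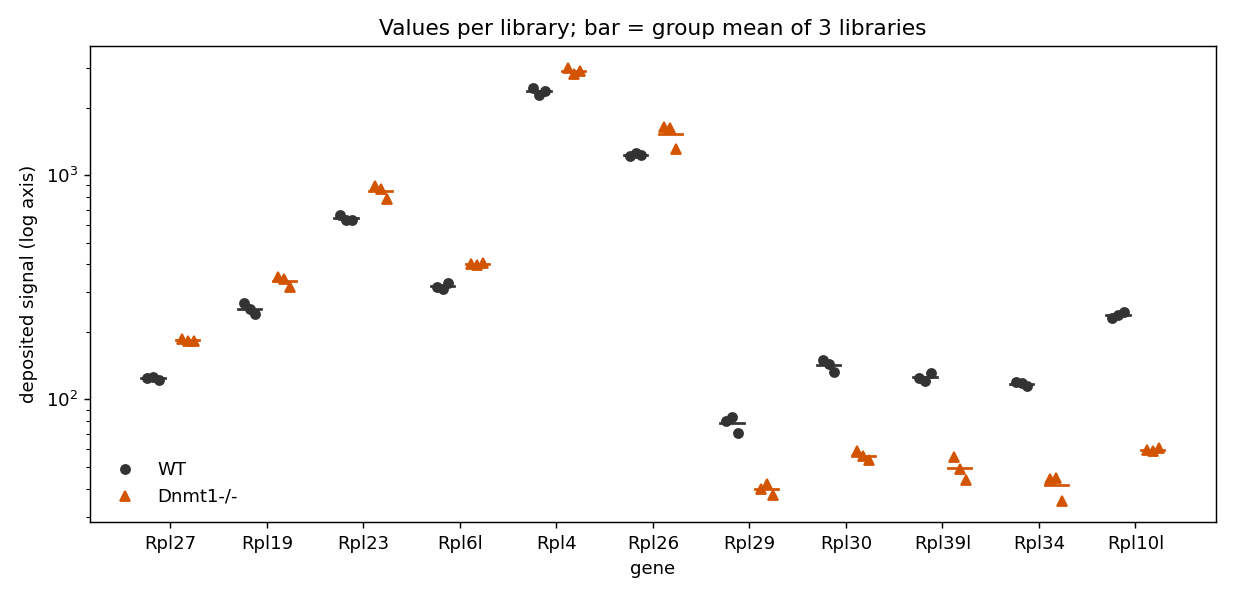
Deposited signal (y axis, log axis) of the 6 genes with the largest rises and 5 of those with the largest falls (x axis) in each library, WT as circles and Dnmt1-/- as triangles, with the group mean as a bar. The groups are apart for every gene shown, narrowly for Rpl26.

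The stalk genes, Rpsa, Rpl5 and Rpl11 did not pass. Rplp0, Rplp1 and Rplp2 form the stalk that recruits translation factors. Their log2 fold changes were −0.06 (adjusted p = 0.34), −0.08 (adjusted p = 0.35) and 0.06 (adjusted p = 0.35). Rpsa, the small-subunit protein also known as the laminin receptor, had 2433, 2324 and 2268 in WT and 2477, 2409.9 and 2267 in Dnmt1-/-, log2 fold change 0.03 (adjusted p = 0.73). Rpl5 and Rpl11, known to bind Mdm2 when ribosome assembly is disturbed, were at 0.06 (adjusted p = 0.38) and −0.03 (adjusted p = 0.69).

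The rises were unevenly placed on the chromosomes. Of the 7 members on chromosome 11, 5 rose (Rpl27, Rpl19, Rpl23, Rpl26 and Rps27a), none fell, and Rpl23a (0.18 (adjusted p = 0.063)) and Rpl38 (0.07 (adjusted p = 0.3)) did not pass. Their median was 0.29. The 1191 other protein-coding genes tested on chromosome 11 had a median of 0.38, with 773 that rose and 211 that fell. Of the 71 members elsewhere, 12 rose and 17 fell, with a median of −0.03, against a median of 0.0018 for the 13499 other protein-coding genes. No other chromosome with a member had a median of other genes above 0.094 or below −0.062. The part of the chromosome in the rises was not tested. Rack1, a chromosome 11 gene whose protein sits on the small subunit, had 1980.4, 1975 and 1939.7 in WT and 2845, 2696 and 2658 in Dnmt1-/-, log2 fold change 0.48 (adjusted p = 3.6e-07).

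**Figure D3:**
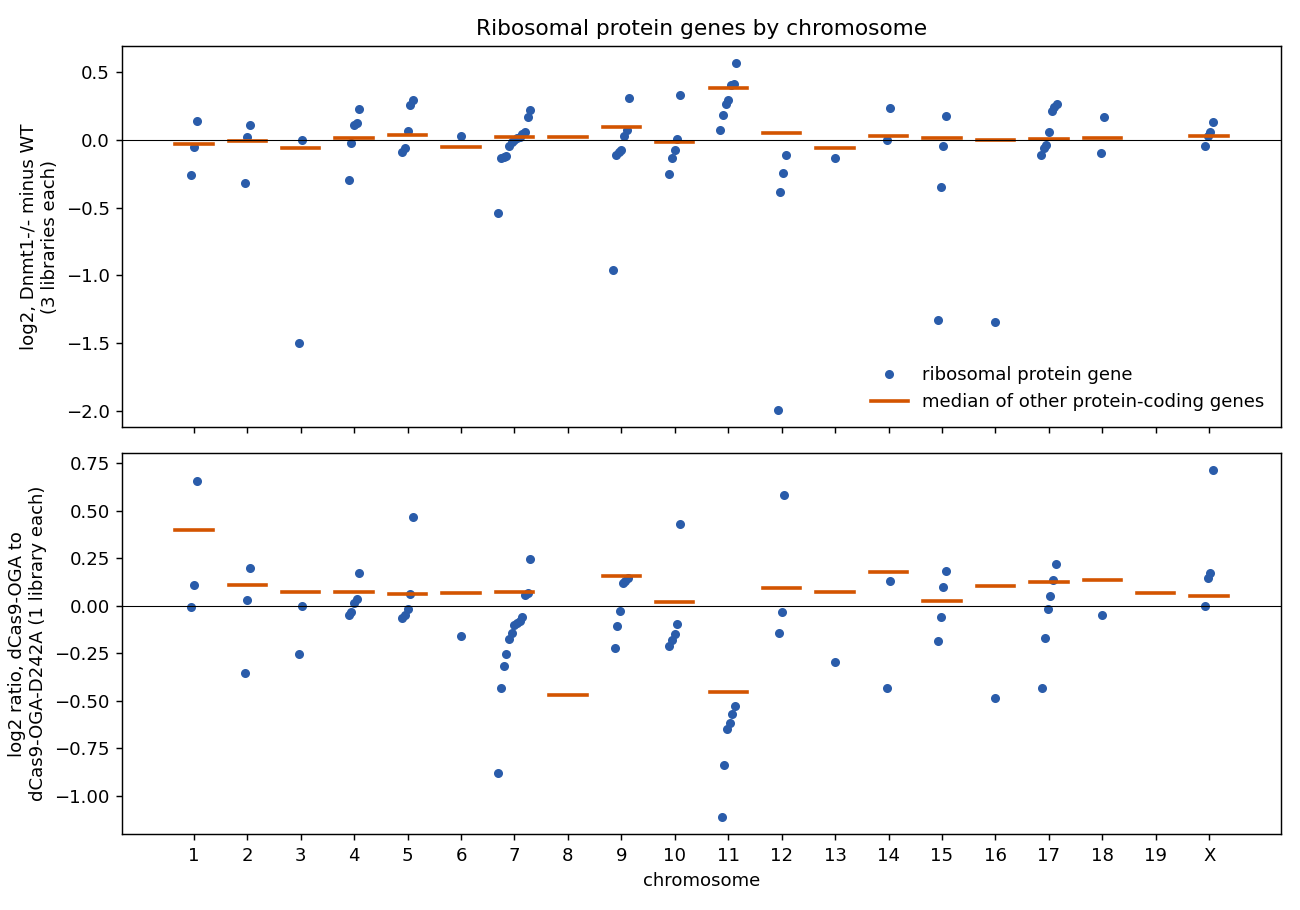
Log2 change of the ribosomal protein genes shown (points) by chromosome (x axis), above for Dnmt1-/- minus WT in the replicate libraries and below for dCas9-OGA to dCas9-OGA-D242A (1 library each), with the median of the other protein-coding genes of that chromosome as a bar. On chromosome 11 the points and the bar lie above 0 in the upper panel (bar at 0.38) and below 0 in the lower one (bar at −0.45), where chromosome 8 is at −0.47.

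Rows of named pseudogenes were set beside the members they copy. Of the named pseudogenes of members, 53 had a mean signal of at least 10 in a group. Of them 18 rose and 8 fell, beside 35.8% and 35.4% of all genes. Of the 16 such rows of members that rose, 13 rose and 3 did not pass. Of the 7 of members that fell, 6 fell and 1 did not pass, and of the 30 of members that did not pass, 5 rose, 2 fell and 23 did not pass. Rpl27-ps3 on chromosome 18 had 259, 255 and 259 in WT and 422, 409 and 407 in Dnmt1-/-, and Rpl27-ps1 on chromosome 1 had 34.8, 33.2 and 34.9 in WT and 59.4, 57.1 and 57.4 in Dnmt1-/-. Their log2 fold changes, 0.68 and 0.75, stand beside 0.56 for Rpl27. Rpl19-ps11 on chromosome 8 was at 0.44 beside 0.41 for Rpl19. The 3 such rows of Rpl9, on chromosomes 2, 13 and 19, were between 0.30 and 0.34 beside 0.29. Those of Rps10 were at 0.31 and 0.21 beside 0.26. Other rows differed from their member: Rpl15-ps3 was at −0.02 (adjusted p = 0.74) beside 0.23 for Rpl15, Rps13-ps2 at −0.08 (adjusted p = 0.22) beside 0.22 for Rps13, and Rpl30-ps1 at −0.14 (adjusted p = 0.089) beside −1.33 for Rpl30. Reads of a member and of its near-identical copies cannot be told apart in such counts, and the rows are no independent support for one another. With all pseudogene rows added to their members, 19 members rose and 18 fell.

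Other genes of ribosome synthesis were read from lists fixed with earlier results of these data known. Beside the members, the ribosome assembly list had 17 of 30 genes that rose and 6 that fell (median 0.19), from Mybbp1a (0.77 (adjusted p = 4.9e-12)), a nucleolar regulator of rRNA transcription, to Nop10 (−0.45 (adjusted p = 1.2e-07)), of the pseudouridylation complexes. Of 12 genes of RNA polymerase I and its factors, 9 rose and 1 fell (median 0.15), from Taf1c (0.72 (adjusted p = 5.2e-10)) to Polr1a (−0.12 (adjusted p = 0.047)), its largest subunit. Of 14 further translation genes with oligopyrimidine starts, 6 rose and 2 fell (median 0.08), with Pabpc1, the poly(A)-binding protein, at 0.54 (adjusted p = 5e-08) and the initiation factor Eif3e at −0.29 (adjusted p = 0.00034). Of 8 host genes of small nucleolar RNAs, 2 rose and 2 fell, among them Snhg5 (0.52 (adjusted p = 4.2e-08)) and Snhg8 (−0.49 (adjusted p = 1.1e-05)). Of 12 genes of growth control, 7 rose and 4 fell, with the S6 kinase gene Rps6kb1 on chromosome 11 at 0.73 (adjusted p = 1.6e-11) and Mycn at −0.79 (adjusted p = 3.8e-13). Of 72 mitochondrial ribosomal protein genes, 29 rose and 11 fell (median 0.09), from Mrps23 (0.82 (adjusted p = 2.2e-12)) to Mrpl54 (−0.67 (adjusted p = 9.7e-10)). The shares that passed, from 4 of 8 to 11 of 12 over these lists, are to be read against 71.2% of all genes. Among listed ribosomal protein and related genes that the naming rule leaves out, Fau was at 0.10 (adjusted p = 0.093) and Rsl24d1 at 0.19 (adjusted p = 0.0013). Rpl7l1 was analysed in the single libraries alone, at 203 cpm in WT, 186 in Dnmt1-/-, 114 in dCas9-OGA-D242A and 164 in dCas9-OGA.

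The level of a member differed widely between the replicate and the single libraries, which were aligned with different tools. Rpl5 had a mean signal of 982 in the 3 WT replicates and 6.82 cpm in the single WT library, and Rps16 one of 771 and 5.77 cpm. Over the 78 members, Spearman's rho between the WT means and the single WT library was 0.63, as a description across genes that share libraries. Of the members, 62 have copies of at least 98% identity over 90% or more of their coding sequence elsewhere in GRCm38, with up to 18 matches (Rpl21). The median log2 difference, single library minus replicates, was −3.27 over these 62 and −0.30 over the 14 members without a copy. In all, 31 members were at least 10 times lower. The part of the aligner in these differences was not tested, and the rest of the comparisons stay within a table.

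**Figure D4:**
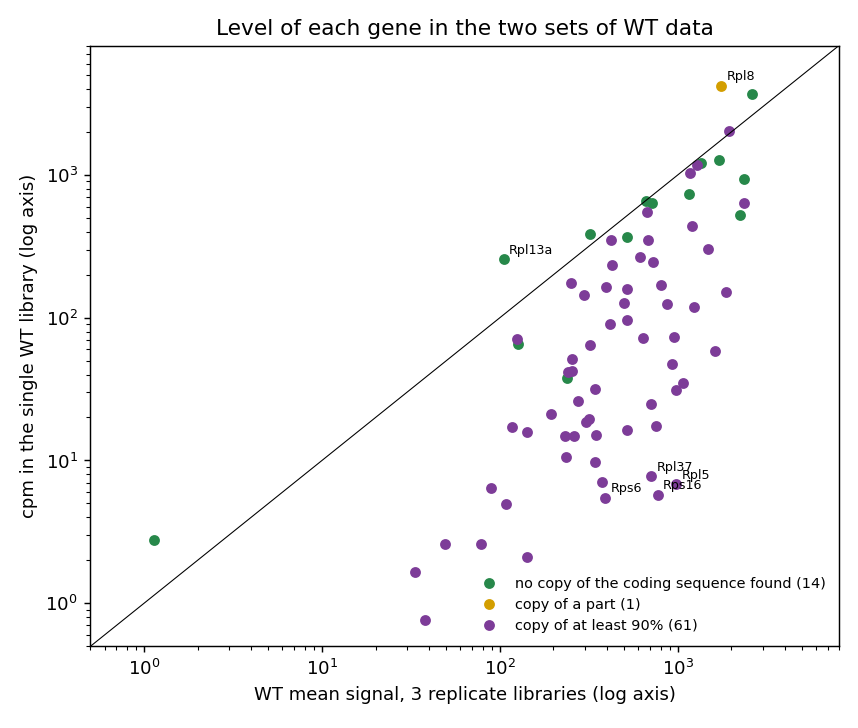
Mean signal of 76 ribosomal protein genes in the 3 WT replicate libraries (x axis, log axis) and cpm in the single WT library (y axis, log axis), colored by the share of the coding sequence with a copy of at least 98% identity elsewhere, with the line of equal values. The 14 genes without a copy lie between −2.64 (Rpl10l) and 1.28 (Rpl13a) on the log2 scale from the line, most of the 61 shown with one over at least 90% of their coding sequence lie below it.

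Whether targeted removal of O-GlcNAc at IAP elements went with a change was asked with 1 library of dCas9-OGA and 1 of dCas9-OGA-D242A, so no difference has a replicate check. Ratios were computed on the log2(cpm + 0.5) scale with TMM factors, for genes with at least 100 counts summed over the pair. Of 73 members with enough counts, 2 exceeded 1.5-fold upward in dCas9-OGA and 6 exceeded it downward, beside 13.2% and 15.2% of the 12722 genes as a whole. The median member was at −0.05 and the median gene at 0.03. Intervals cover counting error only. Of 4 primitive endoderm markers with enough counts 3 were past 1.5-fold upward in dCas9-OGA (median 1.26), of 4 ES cell markers 2 were past it upward (median 0.55) and of 4 fibroblast markers 2 were past it downward (median −0.59). The part of these markers in the result was not tested.

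Most of the members past 1.5-fold downward lie on chromosome 11. Rpl27 was counted at 70.8 cpm in WT, 75.4 in Dnmt1-/-, 50.6 in dCas9-OGA-D242A and 23.2 in dCas9-OGA, a log2 ratio of −1.11 (95% counting interval from −1.25 to −0.97). Rpl38 had 18.6 cpm in WT, 16.4 in Dnmt1-/-, 21.5 in dCas9-OGA-D242A and 11.8 in dCas9-OGA, a ratio of −0.84 (95% counting interval from −1.05 to −0.63). Rpl19 was at −0.65, Rps27a at −0.61, Rpl26 at −0.57 and Rpl23 at −0.53, so that all 6 members of chromosome 11 with enough counts were lower. Their median was −0.63, and the 1000 other protein-coding genes of chromosome 11 had a median of −0.45. Rpl28, on chromosome 7, had 31.8 cpm in WT, 39.6 in Dnmt1-/-, 42.7 in dCas9-OGA-D242A and 23.0 in dCas9-OGA and a ratio of −0.88 (95% counting interval from −1.02 to −0.73).

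The higher members were Rpl36a and Rpl7. Rpl36a rested on 77 counts in the D242A library, against 134 in the library with the active hydrolase, a ratio of 0.71 (95% counting interval from 0.31 to 1.12). Rpl7, at 58.4 cpm in WT, 176 in Dnmt1-/-, 183 in dCas9-OGA-D242A and 288 in dCas9-OGA, had a ratio of 0.65 (95% counting interval from 0.60 to 0.71), on chromosome 1, whose other genes had a median of 0.40. Rpl10l came next with 37.8 cpm in WT, 29.4 in Dnmt1-/-, 23.6 in dCas9-OGA-D242A and 35.7 in dCas9-OGA, a ratio of 0.58 (95% counting interval from 0.43 to 0.73), just short of 1.5-fold. With a constant of 5 cpm in place of 0.5, 1 member was higher and 5 were lower.

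The single Dnmt1-/- and WT libraries gave a further comparison without a test. Of 76 members with enough counts, 12 lay more than 1.5-fold above WT in Dnmt1-/- and 3 more than 1.5-fold below it, beside 19.7% and 17.9% of 12593 genes. The median member was at 0.02 and the median gene at −0.07. Rpl7 was highest, with 58.4 cpm in WT, 176 in Dnmt1-/-, 183 in dCas9-OGA-D242A and 288 in dCas9-OGA, a ratio of 1.59. Rps4x followed with 151 cpm in WT, 369 in Dnmt1-/-, 399 in dCas9-OGA-D242A and 442 in dCas9-OGA (1.29), and Rpl6 with 73.4 cpm in WT, 174 in Dnmt1-/-, 173 in dCas9-OGA-D242A and 165 in dCas9-OGA (1.24). For these members the WT library was the one apart, since both fusion libraries, also of AinV15 cells, lay at or near the Dnmt1-/- value or above it. Rpl4 showed the same order, at 932 cpm in WT, 1733 in Dnmt1-/-, 2006 in dCas9-OGA-D242A and 2199 in dCas9-OGA. The lowest were Rpl31 (−0.88 (95% counting interval from −1.09 to −0.67)), Rpl34 (−0.86) and Rps15a (−0.68), and none of the 3 stayed past 1.5-fold once the pseudogene rows were added.

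These libraries and the replicates are not the same libraries, and the labels do not say whether they share RNA. Of the 17 members that rose with replicates, 13 were above 0 in the single comparison and 4 below. Of the 17 that fell, 16 had enough counts, and 13 were below 0. Of the 44 not called, 43 had enough counts, with 24 above 0 and 19 below. Of all 12593 genes, 5699 were above 0 and 6894 below. For Rpl19, Rpl23 and Rpl26 the WT library was the lowest of the single libraries. It had 51.0, 71.6 and 118 cpm, beside 103, 129 and 268 in dCas9-OGA-D242A. For Rpl27 and Rpl15 it was above dCas9-OGA-D242A (70.8 and 174 cpm beside 50.6 and 134). Sizes differed between the replicate and the single comparison. Rpl34 was at −1.498 with replicates and −0.86 in the single libraries, and Rpl10l at −1.99 and −0.36. Rpl30 was at −1.33 and −0.07, and Rpl39l at −1.35 and −0.05. Rpl29 was at −0.96 and −0.0021, the latter on 64 counts in WT and 49 in Dnmt1-/-. Rpl27, with the largest rise in the replicates, was at 0.09 (95% counting interval from −0.01 to 0.19), and the 6 members of chromosome 11 had a median of 0.58 where the 985 other genes of that chromosome had 0.15. Markers of other cells were also lower in the single Dnmt1-/- library, where 3 of 4 fibroblast markers (median −1.10), 2 of 2 markers of the 2-cell-like state (median −2.89) and 5 of 5 primitive endoderm markers (median −1.50) were past 1.5-fold downward and 1 of 4 ES cell markers was past it upward (median −0.24). With replicates all 5 fibroblast markers and 4 of 5 markers of the 2-cell-like state had fallen, and 4 of 5 primitive endoderm markers had risen. The part of these markers was not tested.

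**Figure D5:**
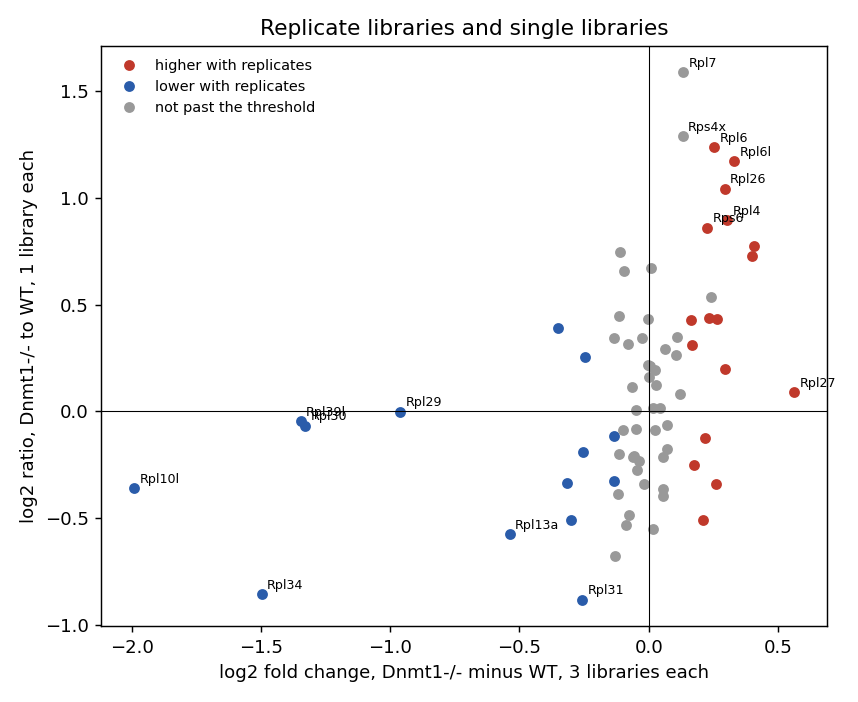
Log2 fold change with replicates (x axis, Dnmt1-/- minus WT) and log2 ratio of the single libraries (y axis) for 74 ribosomal protein genes, colored by the call with replicates. Of the genes in red 13 of 17 lie above 0 on the y axis and of those in blue 12 of 14 lie below it, while Rpl7 (1.59) and Rps4x (1.29) are high without having passed with replicates.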

How the data were processed

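Poly(A) RNA of mouse ES cells was sequenced, with reads aligned to mm10. For the 6 replicate libraries (HISAT2 2.1.0) the authors deposited a signal per gene, reads counted with featureCounts 1.5.0 and divided by a scaled library size. Every value was a whole multiple of 1 read (100% within 0.01), so reads were recovered. For the 4 single libraries (TopHat2 2.0.11, Bowtie2 2.2.2) the authors deposited raw counts. Headers of the replicate files did not match their columns, so columns were taken by position. The library kit is given as stranded in the methods and as a kit without strand in the labels, so overlapping antisense genes cannot be told apart. ChIP-seq and repeat counts were not analysed here.

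Log2(signal + 0.5) of the genes kept by filterByExpr was fitted with limma 3.58.1 (trend, Benjamini-Hochberg adjustment). A normalized signal is not a count, so the recovered reads served only for alternatives, with DESeq2 1.42.0 and with the quasi-likelihood test of edgeR 4.0.16. The fits were tested on simulated data. Single libraries were scaled by TMM and not tested. Positions and copies used GENCODE vM21 on GRCm38, with copies found by megablast at 98% identity over at least 50 bases. Scripts ran in R 4.3.3 and in Python 3.11.15 with NumPy 2.4.6 and pandas 2.3.3, and plots in matplotlib 3.10.9.

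Members and lists were chosen with earlier results of these data known. Members named by rule were the 6 largest rises and falls among those called, the paralog groups, Rplp0, Rplp1, Rplp2 and Rpsa. The 3 highest and 3 lowest members of each single-library comparison were added. Other genes named by rule were Dnmt1 and the listed ribosomal protein and related genes outside the naming rule. The largest rise and fall called in each other list were also named by rule. The remaining genes were named after their values were seen. Rps4l and Sox2 were not analysed here, nor was Rpl7l1 in the replicate libraries. Some genes that the counts include are not reported here by name or in the plots.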

Additional observations from a re-analysis of the deposited data

How the results depend on the processing

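Over all alternatives of the replicate comparison, including pseudocount 5, no filter, TMM factors, edgeR and DESeq2, the members that rose numbered between 13 and 23 and those that fell between 15 and 35, and the fall of Dnmt1 stayed past the threshold (log2 fold change between −2.24 and −2.08). Library totals without the members gave 35 falls and a median of −0.10. Leaving out 1 library gave between 15 and 23 rises, between 15 and 25 falls, medians between −0.05 and 0.05, and −2.20 to −2.11 for Dnmt1. With the replicate number as a block (replicate block), 22 members rose and 21 fell. Over all genes tested, deviations from the group mean correlated little between libraries of the same number (0.07, −0.02 and 0.07). Over the members, replicate 3 was the lowest most often in both groups (44 of 78 in WT and 64 in Dnmt1-/-). Whether the numbers pair the samples is thus not settled, and the main test assumed no pairing. Of 434 alternatives of the 31 members named by rule, 394 kept the direction and the side of the threshold, 22 passed it where the main test had not, 1 no longer passed (Rpl28 with totals without the members) and 17 changed sign, all in members that passed in neither fit. With totals without the members, the log2 fold change changed sign to −0.070 for Rpl10, −0.044 for Rpl39, −0.043 for Rplp2, −0.073 for Rpsa and −0.029 for Rpl38, and with pseudocount 5 that of Rps27 was 0.00017. Leaving out 1 library changed the sign for Rpl10 (−0.016 to 0.084), Rpl36a (−0.088 to 0.026), Rpl39 (−0.029 to 0.18), Rps27 (−0.083 to 0.11), Rps27l (−0.17 to 0.016), Rplp1 (−0.14 to 0.017), Rpsa (−0.0018 to 0.062) and Rps15a (−0.21 to 0.0034). Of all 34 members called, 27 kept their call under every alternative run and 7 lost it under at least 1 (Rpl15, Rpl17, Rpl28, Rpl8, Rps2, Rps23 and Rps26), with no change of sign. In the single libraries, adding pseudogene rows gave 1 member higher in dCas9-OGA (as did a pseudocount of 5 cpm), and 0 lower in Dnmt1-/-. Depth limits Rpl3l, with under 50 reads per replicate library.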

Other observations

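A pair of pseudogene rows stood apart from the members they copy. Rps15a-ps8, on chromosome 4, had 2, 1 and 1 reads in WT and 727, 761 and 548 in Dnmt1-/- (signal 0.0655, 0.026 and 0.0359 in WT and 25.3, 25.0 and 20.2 in Dnmt1-/-), while Rps15a had 542, 517 and 492 in WT and 526, 509.7 and 392.1 in Dnmt1-/-, log2 fold change −0.13 (adjusted p = 0.12). Rpl18-ps2, on chromosome 6, had 103, 109 and 101 in WT and 281, 271 and 263 in Dnmt1-/-, log2 fold change 1.38 (adjusted p = 1.2e-17), while Rpl18 was at −0.05 (adjusted p = 0.44). With the pseudogene row added, Rpl18 was at 0.19. Both rows were named after their values were seen. Of 149 named ribosomal protein pseudogenes, 87 were tested, and 21 rose and 13 fell in Dnmt1-/-. The share that passed was 39.1%, below the 71.2% of all genes.

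Markers of other cells also moved in the replicate comparison. Of 5 primitive endoderm markers 4 rose, of 5 markers of the 2-cell-like state 4 fell, with Zscan4c at −1.35 (adjusted p = 5.3e-17), and of 4 ES cell markers Pou5f1 and Esrrb fell (−0.17 and −0.45).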
